A study of Mus musculus with 6 samples.

Results

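The ovary and the testis of the mouse fetus at 15.5 days postcoitum were compared over all genes measured, with attention to functions other than the leading genes of meiosis and of steroid synthesis and to differences of 2- to 4-fold. The comparison uses 2 of the 6 arrays of the study, fetal ovary and fetal testis, 1 array each. Neonatal ovary and neonatal testis of postnatal day 1 serve as a second pair, and adult ovary and adult testis of 10 weeks complete the set. All mice were of the inbred strain C57BL/6, with no treatment or mutation named, and gonads were dissected whole, so that every value is an average over germ cells, supporting cells, interstitial cells, vessels and blood. The number of animals behind an array was not given in the sources used here. With 1 array per group nothing can be set against a spread between animals, so ratios are reported without a p-value.

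A value is an array signal, a brightness on a linear scale, scaled so that the arrays share 1 trimmed mean. Signals under a floor of 75.3, the median of all scaled signals, were raised to it, so a ratio with 1 array at the floor is a bound, given as "at least". Each of 18193 genes is represented by its brightest probe set. Probe sets of different genes differ in how well they bind, so levels are compared between gonads and not between genes. Of these genes, 12595 were above the floor on at least 1 fetal array and 11618 on both. The scale factors of the fetal arrays were 0.913 for ovary and 0.968 for testis, and signal at the 3' end over that at the 5' end, which grows as RNA degrades, was 1.45 in fetal ovary and 1.36 in fetal testis for Gapdh, and 3.78 in fetal ovary and 3.14 in fetal testis for Actb. The labelled tissues were borne out by their markers. Foxl2, Fst, Irx3, Wnt4 and Rspo1, which mark the supporting cells of the ovary, were all brighter in fetal ovary, and Sox9, Amh, Dhh, Ptgds and Cst9, which mark those of the testis, were all brighter in fetal testis. Both gonads held germ cells: Ddx4, an RNA helicase of germ cells, had a signal of 1172 in fetal ovary and 1609.6 in fetal testis.

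In the mouse, the supporting cells of an XY gonad become Sertoli cells under Sry and Sox9, enclose the germ cells in cords and secrete AMH, Desert hedgehog and inhibins. Leydig cells arise between the cords and make androgens from cholesterol. In the XX gonad the supporting cells become pre-granulosa cells under Wnt4, Rspo1 and Foxl2, and retinoic acid and BMP signals lead the germ cells into meiosis, while male germ cells stop dividing and switch on DNA methylation and the piRNA pathway, which silences transposons.

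Most genes had nearly the same signal in both fetal gonads. The median log2 ratio of fetal ovary over fetal testis was 0.02 over the 12595 genes, with a 5th percentile of -0.66 and a 95th of 0.59. A ratio of 2 or more was reached by 211 genes higher in fetal ovary (1.68% of the genes above the floor) and by 326 lower (2.59%). A ratio of 4 or more was reached by 35 higher (0.278%) and 80 lower (0.635%). Every count of list or family members below is to be read beside these shares of all genes. The 4-fold genes higher in fetal ovary included 17 on lists of meiotic genes and 1 on the list of steroid synthesis, which leaves 17. Below 4-fold this proportion changed, since 163 of the 176 genes 2- to 4-fold higher were on neither kind of list. Of the lower genes, 74 of 80 at 4-fold or more and 243 of 246 at 2- to 4-fold were on neither.

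The spread of 1 log2 ratio between probe sets was taken from 4671 pairs of probe sets of the same gene and had a robust SD of 0.16. Both probe sets of a pair were read from the same 2 arrays. The SD therefore covers no variation between animals, dissections, labellings or hybridizations. This spread depended on brightness. Where all 4 signals of a pair were at least 4 times the floor (301), the SD was 0.12 and 2 of 2252 pairs (0.0888%) lay more than 2-fold apart. Where the dimmest signal was under that level, the SD was 0.21 and 1.86% of 2419 pairs did. A brighter signal under 4 times the floor was found for 69 of the 176 genes 2- to 4-fold higher and 115 of the 246 lower, and a ratio of 4 cannot be reached below that level. The median brighter signal was 368 in the 2- to 4-fold higher band and 340.1 in the lower one, and 720.4 and 770.4 in the bands of 4-fold or more.

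**Figure D1:**
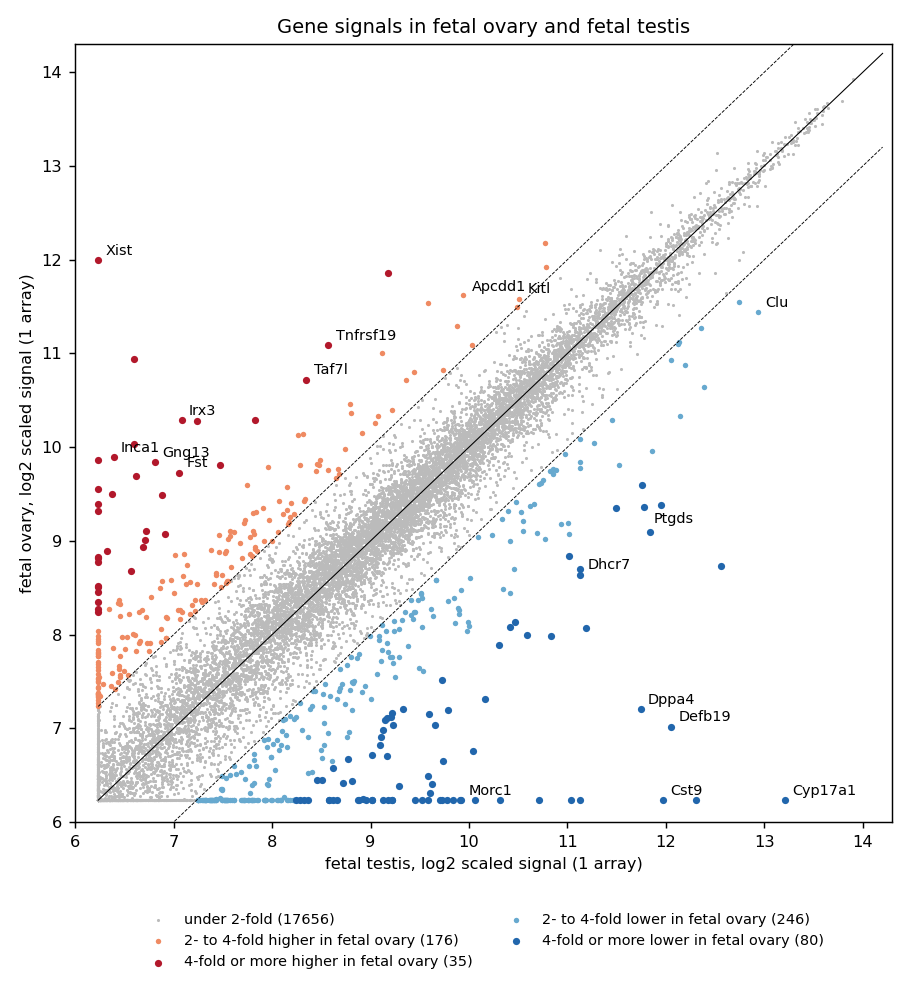
Each point is 1 of 18193 genes, with its log2 scaled signal in fetal testis on the x axis and in fetal ovary on the y axis, 1 array each; the solid line marks equal signals, the dashed lines a 2-fold ratio, and colours the bands of 2-fold and 4-fold. The 35 dark red genes above the line and the 80 dark blue genes below it are 4-fold or more apart, and points along the lower and left edge are at the floor.

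Of 21 listed supporting cell genes of the ovary above the floor, 9 were at least 2-fold higher in fetal ovary, 6 of them by 2- to 4-fold, 12 were under 2-fold and none was lower, beside 1.68% and 2.59% of all genes, with a median log2 ratio of 0.85 beside 0.02. In whole gonads, more cells of a type and more RNA per cell cannot be told apart. Foxl2, a forkhead factor that maintains granulosa cell identity, had signals of 532 in fetal ovary and 189.8 in fetal testis, a ratio of 2.8-fold. Irx3, an Iroquois factor of pre-granulosa cells, had 1248 in fetal ovary and 136 in fetal testis (9.21-fold higher). Fst, follistatin, which binds and blocks activin, had 847 in fetal ovary and 133 in fetal testis (6.35-fold higher). Gng13, a gamma subunit of G proteins, had 915 in fetal ovary and 112 in fetal testis (8.15-fold higher). Bmp2, a BMP ligand, had 337 in fetal ovary and 109 in fetal testis, a ratio of 3.1-fold. The homeobox genes Emx2, which is needed to form the urogenital tract, and Msx1 were 2.11-fold and 2.23-fold higher, with signals of 1809 in fetal ovary and 856 in fetal testis and of 332 in fetal ovary and 149 in fetal testis. Emx2 also marks the mesonephros and its ducts, and it was the only gene of 21 on that list at 2-fold. On the list of surface epithelium, which shares Lgr5 and Lhx9 with that of supporting cells, 1 of 16 genes, Lgr5, was 2-fold higher and none lower, 12 were above 0 and the median was 0.49, with a summed signal of 20961 in fetal ovary and 15727 in fetal testis. The part of surface epithelium in the supporting cell result was not tested. Lhx9, a factor of gonad progenitors, was the single listed gene below 0, with 1104 in fetal ovary and 1794 in fetal testis. Wnt4 and Rspo1, which start the female pathway, stayed under 2-fold, with signals of 2124 in fetal ovary and 1476 in fetal testis for Wnt4 and 1616 in fetal ovary and 933 in fetal testis for Rspo1.

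Among 40 genes of Wnt and R-spondin signalling 4 were 2-fold or more higher and none lower, with a median log2 ratio of 0.16. All 4 act at the membrane or outside the cell. Apcdd1, which inhibits Wnt at the cell surface, had 3152 in fetal ovary and 979.6 in fetal testis (3.22-fold higher), and 5 of its probe sets were above the floor. Notum, an enzyme that inactivates Wnt proteins, had 623 in fetal ovary and 299.5 in fetal testis (2.08-fold higher). Lgr5, a receptor of R-spondins, had 249 in fetal ovary and 121 in fetal testis (2.06-fold higher), and Rnf43, a ligase that removes Wnt receptors, had 166 in fetal ovary and was at the floor in fetal testis (at least 2.21-fold higher). Other Wnt target genes were higher by less than 2-fold. Axin2 had 1255 in fetal ovary and 695 in fetal testis, Nkd1 had 645 in fetal ovary and 339 in fetal testis and Sp5 had 326 in fetal ovary and 171 in fetal testis. Ctnnb1, beta-catenin, was nearly equal with 8889 in fetal ovary and 8884 in fetal testis, and so was the receptor gene Fzd1 with 2012 in fetal ovary and 1859 in fetal testis. Tnfrsf19, a receptor of the TNF family, was on no list and stood out at 2179 in fetal ovary and 381 in fetal testis (5.73-fold higher), although a dimmer probe set of the same gene gave a log2 ratio of 0.64.

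Other secreted signals and their receptors differed in small numbers. In the BMP and TGF-beta list 1 of 26 genes, Bmp2, was 2-fold higher and none lower, with a median of 0.31, and the BMP target Id2 was just under with 1768 in fetal ovary and 894 in fetal testis. Kitl, the ligand that germ cells read through Kit, had 3071 in fetal ovary and 1456 in fetal testis (2.11-fold higher), while 3 other probe sets of it gave log2 ratios between 0.24 and 0.71. Kit itself had 479 in fetal ovary and 447 in fetal testis. Efnb2 and Efna1, ligands of Eph receptors, were 2.28-fold and 2.04-fold higher with 866 in fetal ovary and 379.9 in fetal testis for Efnb2 and 381 in fetal ovary and 187 in fetal testis for Efna1. Gfra1, a receptor for GDNF, had 303 in fetal ovary and 136 in fetal testis (2.22-fold higher). None of 16 FGF genes reached 2-fold.

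The inhibin, activin and AMH system went both ways. Amhr2, the receptor of AMH, had 3878 in fetal ovary and 1756 in fetal testis (2.21-fold higher), and 2 further probe sets gave log2 ratios of 1.82 and 1.33. Its ligand Amh was at the floor in fetal ovary with 2093 in fetal testis. The activin subunit genes were lower. Inhba had 511 in fetal ovary and 1369 in fetal testis (2.68-fold lower), and Inhbb had 359 in fetal ovary and 1301 in fetal testis (3.63-fold lower), with a log2 ratio of -0.74 at another probe set. Inha, the alpha subunit that turns activins into inhibins, had 545 in fetal ovary and 3654 in fetal testis (6.7-fold lower). Together with Fst the list had 2 genes higher and 4 lower of 16.

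Several genes far higher in fetal ovary belong to no meiotic list. Inca1, which binds cyclin A1 and inhibits its kinase, had 950.1 in fetal ovary and 84 in fetal testis (11.3-fold higher). Ugt8a, which makes the membrane lipid galactosylceramide, had 722 in fetal ovary and 83.2 in fetal testis (8.67-fold higher). Fmr1nb, an X-linked gene, had 1238 in fetal ovary and 151 in fetal testis (8.2-fold higher), and Taf7l, a germ cell relative of the transcription factor subunit TAF7, had 1687 in fetal ovary and 326 in fetal testis (5.17-fold higher). Of these 4 genes, Taf7l alone was above 4 times the floor in fetal testis. Calb1, the calcium-binding calbindin, had 439.6 in fetal ovary and was at the floor in fetal testis (at least 5.84-fold higher). Figla, the factor that activates genes of the egg coat, had 352 and was at the floor in fetal testis (at least 4.67-fold higher). Lypd6b and Lypd4, genes of the Ly6 family, were 4.76-fold and at least 4.02-fold higher, with 490.3 and 303 in fetal ovary against 103 and the floor in fetal testis. Alg13, a subunit of an enzyme of protein glycosylation, had 408 in fetal ovary and 94.6 in fetal testis (4.32-fold higher). Atf7ip2 had 516 in fetal ovary and 105 in fetal testis and Plet1 had 309 in fetal ovary and the floor in fetal testis, but dimmer probe sets of both gave smaller log2 ratios, 0.47 for Atf7ip2 and 0.15 and 0.88 for Plet1.

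STRA8 and its partner MEIOSIN, which start meiosis, bind a short motif in the promoters of their targets in the mouse. Promoter windows of 300 bases, from 250 before to 50 after the annotated start, were available from RefSeq (GRCm38.p6) for 14452 of the genes, 18109 windows in all, and were searched on both strands for the letters CNCCTCAG. The motif was in 8.92% of all windows. It was in 10 of 34 windows (29.4%) of the genes 4-fold or more higher, and in 6 of 17 (35.3%) of those on no meiotic list, which were windows of Figla, Fmr1nb, Gng13, Inca1, Lypd4 and Ugt8a. In the 2- to 4-fold bands it was in 13.6% of 169 windows of higher genes and 8.07% of 223 windows of lower genes, and in 11.1% of 72 windows of genes 4-fold or more lower. Of these windows 4 are shown, because their genes were on no meiotic list, were 8-fold or more higher and held the motif. Each line runs 5' to 3' along the gene's own strand, and capitals mark the match or its reverse complement. The windows are chr11:70700106-70700405 (minus strand) for Inca1, chr3:125938603-125938902 (minus) for Ugt8a, chrX:68761589-68761888 (plus) for Fmr1nb and chr17:25717278-25717577 (plus) for Gng13.
Inca1: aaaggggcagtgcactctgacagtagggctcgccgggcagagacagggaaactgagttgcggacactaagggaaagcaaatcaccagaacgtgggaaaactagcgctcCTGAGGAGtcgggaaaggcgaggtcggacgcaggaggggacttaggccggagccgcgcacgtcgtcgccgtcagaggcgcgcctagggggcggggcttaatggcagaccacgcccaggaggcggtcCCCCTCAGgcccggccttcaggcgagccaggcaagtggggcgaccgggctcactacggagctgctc
Ugt8a: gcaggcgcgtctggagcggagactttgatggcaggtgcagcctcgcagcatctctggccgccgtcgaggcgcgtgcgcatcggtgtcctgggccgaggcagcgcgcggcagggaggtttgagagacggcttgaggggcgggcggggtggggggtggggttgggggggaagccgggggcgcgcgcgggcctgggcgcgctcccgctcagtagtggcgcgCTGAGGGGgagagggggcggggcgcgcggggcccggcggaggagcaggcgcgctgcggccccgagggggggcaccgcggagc
Fmr1nb: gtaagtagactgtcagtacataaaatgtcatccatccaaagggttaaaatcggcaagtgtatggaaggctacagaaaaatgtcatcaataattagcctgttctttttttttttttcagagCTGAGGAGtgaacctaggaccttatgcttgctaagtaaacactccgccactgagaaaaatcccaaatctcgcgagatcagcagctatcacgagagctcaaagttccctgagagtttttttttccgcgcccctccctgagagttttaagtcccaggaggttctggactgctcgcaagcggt
Gng13: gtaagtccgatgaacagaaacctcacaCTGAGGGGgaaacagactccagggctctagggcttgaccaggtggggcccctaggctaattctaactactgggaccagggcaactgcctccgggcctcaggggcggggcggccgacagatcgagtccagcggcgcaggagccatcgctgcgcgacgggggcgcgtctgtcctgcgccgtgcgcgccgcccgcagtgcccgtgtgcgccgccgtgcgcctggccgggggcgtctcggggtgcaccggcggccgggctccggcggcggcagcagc
Inca1 held 2 matches, beginning 142 and 16 bases before the start, and the others held 1 each, beginning 32 bases before the start in Ugt8a, 130 in Fmr1nb and 223 in Gng13. A match is a description of letters and no evidence of binding, and the windows rest on annotated starts that may not be those used in the gonad.

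A second motif, the E-box CACGTG, was in 8.72% of all windows and in 20.6% of the 34 windows of genes 4-fold or more higher. It was in 8 of 15 windows (53.3%) of the cohesin, chromosome axis and synaptonemal complex genes that were 2-fold or more higher, but in 6.51% of windows of genes 2- to 4-fold higher, 9.42% of those 2- to 4-fold lower and 9.72% of those 4-fold or more lower. Outside the meiotic lists 2 of 17 windows held it, those of Tnfrsf19 and Taf7l, at chr14:61037938-61038237 (minus) and chrX:134476441-134476740 (minus). They are shown with the E-box in capitals, which begins 133 bases before the start in Tnfrsf19 and 49 before it in Taf7l.
Tnfrsf19: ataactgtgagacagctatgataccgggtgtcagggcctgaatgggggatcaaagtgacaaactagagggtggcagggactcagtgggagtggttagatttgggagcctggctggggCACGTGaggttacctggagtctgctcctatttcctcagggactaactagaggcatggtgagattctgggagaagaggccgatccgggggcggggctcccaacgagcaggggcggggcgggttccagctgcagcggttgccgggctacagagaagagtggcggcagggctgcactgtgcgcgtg
Taf7l: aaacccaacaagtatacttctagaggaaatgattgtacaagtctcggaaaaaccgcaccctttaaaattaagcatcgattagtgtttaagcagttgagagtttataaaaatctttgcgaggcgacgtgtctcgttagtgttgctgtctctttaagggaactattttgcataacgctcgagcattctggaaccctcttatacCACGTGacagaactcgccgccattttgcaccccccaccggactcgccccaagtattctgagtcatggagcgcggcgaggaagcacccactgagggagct
The sites AAGGTCA, which the steroidogenic factor NR5A1 binds, and AACAAT, which SOX proteins bind, were in 3.92% and 7.29% of all windows. AAGGTCA was in 5 of 72 windows (6.94%) of genes 4-fold or more lower, but in 2.69% of windows of genes 2- to 4-fold lower. It was also in 3 of 34 windows (8.82%) of genes 4-fold or more higher and in 4.73% of those 2- to 4-fold higher. None of the 20 windows of lower Sertoli product genes held AAGGTCA, while 3 of them (15%) held AACAAT. In the lower bands AACAAT was in 5.56% of windows at 4-fold or more and 4.93% at 2- to 4-fold. In the higher bands it was in 2.94% and 6.51%.

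Germ cell genes outside the meiotic lists were also found in the 2- to 4-fold band. Tex101, a surface protein of germ cells, had 1119 in fetal ovary and 308 in fetal testis (3.64-fold higher). Gpat2, a germ cell acyltransferase of the outer mitochondrial membrane, had 1221 in fetal ovary and 528 in fetal testis (2.31-fold higher), the only gene of the male germ cell and piRNA list that was higher by 2-fold. Sohlh2, a factor of early oocytes and spermatogonia, had 240.3 in fetal ovary and 108 in fetal testis (2.22-fold higher), while its relative Sohlh1 was at the floor in fetal ovary and had 222 in fetal testis. On the oocyte list 17 of 32 genes were at the floor in both fetal gonads, and 2 were higher and 3 lower among the other 15. Nr6a1, the germ cell nuclear factor, had 303 in fetal ovary and 100.2 in fetal testis (3.02-fold higher). Atr, a kinase of the DNA damage checkpoint, had 2501 in fetal ovary and 942 in fetal testis by its brightest probe set (2.66-fold higher) but log2 ratios of 0.22 and 0.38 by dimmer ones. Hells, a chromatin remodeller needed for DNA methylation, had 2177 in fetal ovary and 1048 in fetal testis (2.08-fold higher), while a second probe set gave a log2 ratio of -0.18. Ccne2, a cyclin of the S phase, had 685 in fetal ovary and 321 in fetal testis (2.14-fold higher).

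Of 17 retinoic acid genes 2 were higher, Crabp1 and Stra8, and 1 was lower, with a median of 0.27. Crabp1, which binds retinoic acid in the cytoplasm, had 1681 in fetal ovary and 655 in fetal testis (2.57-fold higher). Cyp26b1, which degrades retinoic acid, was at the floor in fetal ovary with 254 in fetal testis (at least 3.37-fold lower). Hoxa10 and Hoxa11, homeobox genes of the posterior body and reproductive tract, were the 2 of 23 Hox genes past 2-fold, with 631 in fetal ovary and 224 in fetal testis for Hoxa10 (2.82-fold higher) and 475 in fetal ovary and 185 in fetal testis for Hoxa11 (2.57-fold higher). Hand2, a factor of limb, heart and uterus, had 1136 in fetal ovary and 482 in fetal testis (2.36-fold higher). Nefl and Nefm, the light and medium neurofilament chains, had 553 in fetal ovary and 191 in fetal testis and 900.1 in fetal ovary and 312 in fetal testis (2.9-fold and 2.88-fold higher). The defining glial marker Sox10 was dim, at 90.2 in fetal ovary and 167 in fetal testis, and on the nerve and glia list, of which Nefl and Nefm were the 2 genes past 2-fold, 5 of 10 genes were above 0 and 5 below. Lrrn1, Lrrtm1 and Tspan33, membrane proteins, were 3.61-fold, 2.55-fold and 2.46-fold higher, though another probe set of Tspan33 gave a log2 ratio of 0.19. Wfdc2, a secreted protein of duct and surface epithelia, had 763 in fetal ovary and 285 in fetal testis (2.68-fold higher).

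Of 20 genes of interferon response and antigen presentation 2 were higher and none lower, with a median of 0.28. H2-K1 and H2-D1, class I heavy chains that are near-identical in sequence and may share signal, had 2975 in fetal ovary and 769.5 in fetal testis for H2-K1 (3.87-fold higher) and 2053 in fetal ovary and 554 in fetal testis for H2-D1 (3.71-fold higher), with a log2 ratio of 0.78 at a dim probe set of H2-D1. Their light chain B2m had 3398 in fetal ovary and 3519 in fetal testis, so it was nearly equal. Red cell genes were higher in 4 of 10 cases and lower in none, with a median of 0.88 and a summed signal of 15978 in fetal ovary and 10453 in fetal testis. Slc4a1, the red cell anion exchanger, had 1779 in fetal ovary and 696 in fetal testis (2.55-fold higher), and Klf1, the erythroid transcription factor, had 322 in fetal ovary and 87.7 in fetal testis (3.67-fold higher). Ermap and Hemgn, a red cell adhesion protein and a nuclear protein of erythroid cells, were 2.64-fold and 3.35-fold higher. The embryonic globin Hbb-y was nearer to equal with 7328 in fetal ovary and 5496 in fetal testis. Car2, the carbonic anhydrase of red cells and other tissues, had 1321 in fetal ovary and 447 in fetal testis (2.96-fold higher). Of 23 endothelial genes 1 was higher and 1 lower, while 19 were above 0 and the median was 0.20, and none of 20 macrophage genes reached 2-fold (median 0.05). The red cell markers Hba-a1, Hbb-bh1 and Epb42 were at the floor in both gonads. Probe sets with several symbols were left out, and the listed globins Hbb-bt and Hbb-bs had no match. The floor values of globins therefore rest on the probe sets that remained, and absence of their RNA cannot be read from them. The part of blood in the other genes of this direction was not tested.

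Sertoli cell products gave more lower genes than any other of the 54 lists. Of 32 genes above the floor, 26 were 2-fold or more lower and none higher, 18 of them by 4-fold or more, with a median log2 ratio of -2.29. Beyond Amh and Cst9, Ptgds, the enzyme that makes prostaglandin D2, had 659 in fetal ovary and 3519.8 in fetal testis (5.34-fold lower). Clu, clusterin, a secreted chaperone, had 2772 in fetal ovary and 7815 in fetal testis (2.82-fold lower), and 3 further probe sets gave log2 ratios between -1.39 and -1.24. Aard had 773 in fetal ovary and 3471 in fetal testis (4.49-fold lower). Fabp3 and Acsbg1, which bind and activate fatty acids, were 4.15-fold and 6.06-fold lower, with 143 in fetal ovary and 595 in fetal testis for Fabp3 and 146 in fetal ovary and 886 in fetal testis for Acsbg1. Serpina5, a protease inhibitor, and Cbln4, a secreted cerebellin, were at the floor in fetal ovary with 244 and 217 in fetal testis (at least 3.24-fold and at least 2.88-fold lower). Vnn1, a pantetheinase, had 346 in fetal ovary and 732 in fetal testis (2.12-fold lower). The members under 2-fold included Fgf9, which sustains Sox9, with 203 in fetal ovary and 154 in fetal testis, and Cst12, a neighbour of Cst9 in the cystatin family, with 509 in fetal ovary and 600.1 in fetal testis.

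The transcription factors above these genes differed less. Of 12 factors 2 were lower and none higher, with a median of -0.46. Dmrt1, which keeps Sertoli cells male, had 131 in fetal ovary and 599.6 in fetal testis (4.56-fold lower). Nr5a1, which acts in Sertoli and Leydig cells, had 579 in fetal ovary and 1962 in fetal testis (3.39-fold lower). Sox9 was at the floor in fetal ovary and dim in fetal testis at 135, a ratio of at least 1.79-fold that stayed under the limit. Gata4, shared by both sexes, had 495 in fetal ovary and 946 in fetal testis, and Wt1 had 3289 in fetal ovary and 2094 in fetal testis, so the 2 lay on opposite sides of equality and within 2-fold.

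**Figure D2:**
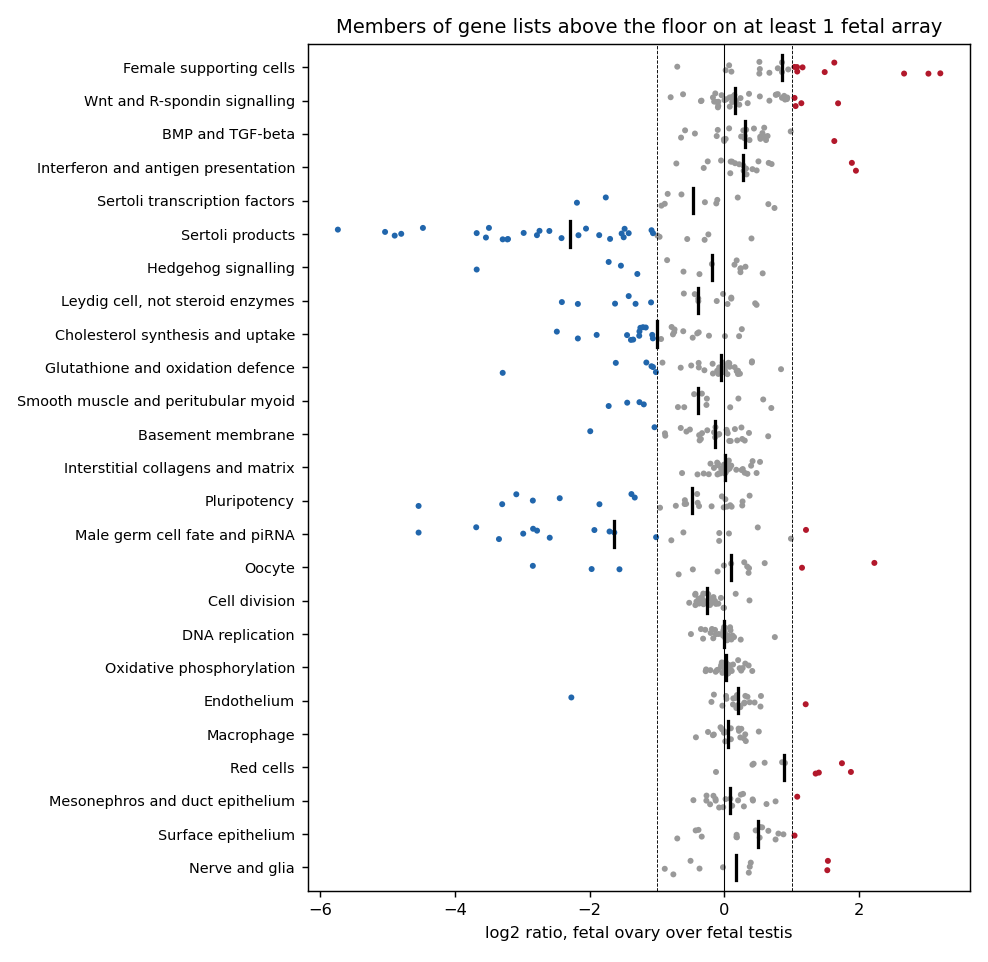
Each row is a gene list and each point a member above the floor on at least 1 fetal array, placed by its log2 ratio of fetal ovary over fetal testis; black bars are list medians, dashed lines mark 2-fold, and red and blue points are past it. Female supporting cell and red cell genes lie to the right (medians 0.85 and 0.88), Sertoli products, male germ cell and cholesterol genes to the left (-2.29, -1.63 and -1.001), and matrix, replication and oxidative phosphorylation genes on the line.

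Of hedgehog signalling, by which Sertoli cells act on the interstitium, the ligand and the induced genes Ptch1 and Gli1 were lower, and 11 of 15 listed genes were within 2-fold. Dhh, the ligand, was at the floor in fetal ovary with 963 in fetal testis. Ptch1 and Gli1, a receptor and a transcription factor that the pathway itself induces, had 897 in fetal ovary and 2952 in fetal testis for Ptch1 (3.29-fold lower) and 207 in fetal ovary and 602 in fetal testis for Gli1 (2.9-fold lower). Hhip, another induced gene, was at the floor in fetal ovary and dim in fetal testis at 136 (at least 1.8-fold lower), a bound short of 2-fold. Smo, the signal transducer, had 1903 in fetal ovary and 1717 in fetal testis, and Gli2 and Gli3 had 748 in fetal ovary and 968 in fetal testis and 1419 in fetal ovary and 958 in fetal testis. In all, 4 of 15 genes were lower and none higher, and the fourth, Shh, was dim at 185 in fetal testis and at the floor in fetal ovary.

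Of 17 Leydig cell genes that are not steroid enzymes, 6 were lower and none higher. Ephx1, an epoxide hydrolase, had 237 in fetal ovary and 1262 in fetal testis (5.33-fold lower). Scarb1, the receptor that takes up cholesterol from HDL, had 459 in fetal ovary and 2073 in fetal testis (4.52-fold lower), and Gramd1b, which moves cholesterol between membranes, had 123 in fetal ovary and 380.0 in fetal testis (3.08-fold lower), with a log2 ratio of -2.75 at another probe set. Nr4a1, a hormone-induced nuclear receptor, and Cited1, a coactivator, were 2.5-fold and 2.13-fold lower, with 127 in fetal ovary and 316 in fetal testis for Nr4a1 and 221 in fetal ovary and 471 in fetal testis for Cited1. Markers of the interstitium that are not particular to Leydig cells were within 2-fold. Pdgfra had 2886 in fetal ovary and 3778 in fetal testis and Nr2f2 had 1079 in fetal ovary and 1046 in fetal testis.

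The enzymes that make cholesterol, the substrate of steroid hormones, were lower along nearly the whole pathway. Of 26 genes for synthesis and uptake, 23 had a log2 ratio below 0 and 13 were 2-fold or more lower, 11 of these by 2- to 4-fold, with a median of -1.001. Hmgcs1, at the start of the pathway, had 4069.7 in fetal ovary and 6826 in fetal testis, and Sqle, which opens the sterol branch, had 1331 in fetal ovary and 2260.5 in fetal testis, both under 2-fold. Several other steps were further apart. Idi1 and Fdps, which make the isoprenoid units, had 673 in fetal ovary and 1613 in fetal testis for Idi1 (2.4-fold lower) and 995 in fetal ovary and 3706 in fetal testis for Fdps (3.72-fold lower). Fdft1, which makes squalene, had 861 in fetal ovary and 1809.9 in fetal testis (2.1-fold lower), and Lss, which closes its rings, had 270.5 in fetal ovary and 737 in fetal testis (2.72-fold lower). Cyp51 had 664 in fetal ovary and 1577 in fetal testis (2.38-fold lower), although a probe set near the floor gave a log2 ratio of -0.10. Msmo1, Nsdhl and Tm7sf2, which trim the sterol, were 2.56-fold, 2.25-fold and 2.62-fold lower, with 877 in fetal ovary and 2241 in fetal testis for Msmo1, 535 in fetal ovary and 1202 in fetal testis for Nsdhl and 210.2 in fetal ovary and 550.1 in fetal testis for Tm7sf2. Dhcr7, the last step, had the largest ratio, with 399 in fetal ovary and 2237 in fetal testis (5.61-fold lower). Insig1, which holds the pathway back when sterol is plentiful, was also lower, with 349 in fetal ovary and 728 in fetal testis (2.09-fold lower). The regulator genes Srebf1 and Srebf2 stayed within 2-fold, with 951 in fetal ovary and 1116 in fetal testis and 376 in fetal ovary and 490.3 in fetal testis, as did the lysosomal exporters Npc1 and Npc2, with 278 in fetal ovary and 232 in fetal testis and 5723 in fetal ovary and 5695 in fetal testis. Insig2, a relative of Insig1, had 556 in fetal ovary and 478 in fetal testis.

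**Figure D3:**
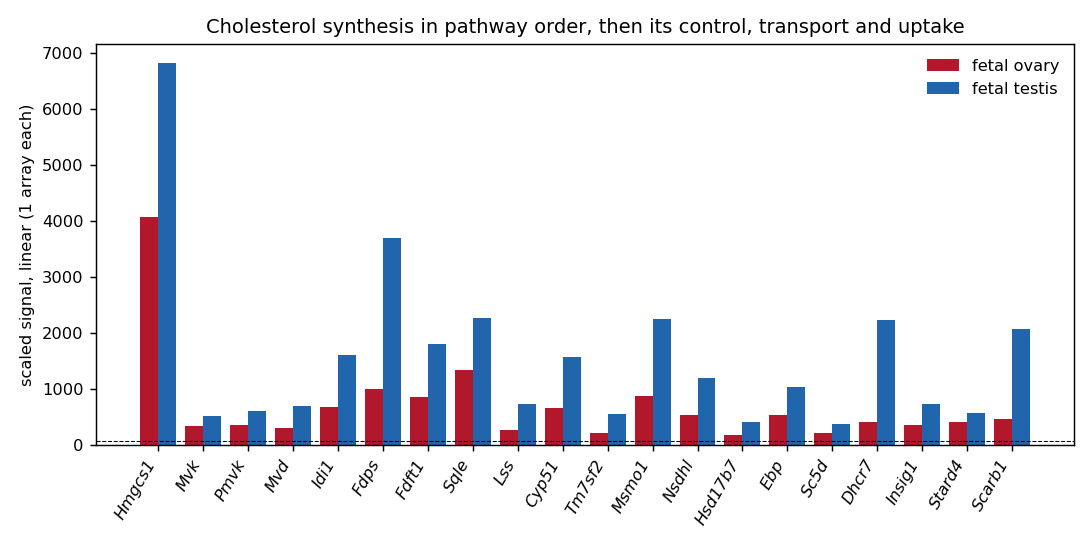
Bars give the scaled linear signal of cholesterol genes in fetal ovary (red) and fetal testis (blue), 1 array each, in the order of the pathway, followed by genes of control, transport and uptake; the dashed line is the floor of 75.3. The 20 genes are synthesis enzymes with Insig1, Stard4 and Scarb1, and leave out 6 of the list, of which 3 were above 0. Those shown are all lower in fetal ovary, least so Stard4, at 403 in fetal ovary and 559 in fetal testis, and most so Dhcr7, at 399 in fetal ovary and 2237 in fetal testis.

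In neonatal gonads the same list had 2 of 26 genes 2-fold lower and a median of -0.16. Fdps had 571 in neonatal ovary and 1896 in neonatal testis (3.32-fold lower), and Scarb1 had 404 in neonatal ovary and 1624 in neonatal testis (4.02-fold lower). Dhcr7 was under the limit with 611 in neonatal ovary and 987 in neonatal testis. The difference between the ages was not tested. Markers of the adrenal cortex, which shares this pathway and lies close to the gonad, were 4 of 8 lower in fetal ovary, with a summed signal of 2482 in fetal ovary and 4965 in fetal testis. These were Star, Hao2, Cyp11b1 and Cyp21a1, of which Cyp11b1 had 329 and Cyp21a1 206 in fetal testis, against the floor and 92.6 in fetal ovary, while Cyp11b2 was at the floor in both and Star had log2 ratios of -4.08 and -3.08 by its probe sets. Star and Cyp11b1 are also on the list of Leydig steroid synthesis, so they do not tell adrenal from Leydig cells. The part of adrenal cells in the cholesterol result was not tested. The sterol regulatory element TCACNCCAC, chosen after the values were seen, was in 1.22% of all windows and in none of the 12 windows that 10 of the 13 lower cholesterol genes had.

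Other metabolic genes were lower without filling a pathway. Alas1, the first enzyme of heme synthesis, Adh1, an alcohol dehydrogenase that oxidises retinol, and Me1, a source of NADPH, were singled out after their values were seen. Alas1 had 655 in fetal ovary and 2875 in fetal testis (4.39-fold lower), Adh1 had 666 in fetal ovary and 3967 in fetal testis (5.95-fold lower) and Me1 had 415 in fetal ovary and 2238 in fetal testis (5.39-fold lower). Aldo-keto reductases gave Akr1cl with 1594 in fetal ovary and 5366 in fetal testis (3.37-fold lower) and Akr1b8 with 1053 in fetal ovary and 2461 in fetal testis (2.34-fold lower), against Akr1c14, which was at least 6.05-fold higher. Glul, glutamine synthetase, had 2463 in fetal ovary and 5225 in fetal testis (2.12-fold lower), and Chchd10, a mitochondrial protein, had 1954 in fetal ovary and 4258 in fetal testis (2.18-fold lower). Of 37 genes of glutathione and defence against oxidation, 6 were lower and none higher, 5 of them glutathione transferases, among which Gsta4 had 1251 in fetal ovary and 2793 in fetal testis and Gstm1 had 2201 in fetal ovary and 4455 in fetal testis. Copies within these gene families are close in sequence and may share signal. Prkar2b, a regulatory subunit of protein kinase A, had 586 in fetal ovary and 2048 in fetal testis (3.5-fold lower), with a log2 ratio of -1.80 at 2 further probe sets. Slc7a5, an amino acid transporter, had 866 in fetal ovary and 1893 in fetal testis (2.19-fold lower), and Fads2, a desaturase of fatty acids, had 785 in fetal ovary and 1700.3 in fetal testis (2.17-fold lower), with a log2 ratio of -2.12 at another probe set. The heat shock genes Hspa1a and Hspa1b, also near-identical, were 2.22-fold and 3.38-fold lower, with 246 in fetal ovary and 545 in fetal testis and 518 in fetal ovary and 1751 in fetal testis.

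On the list of smooth muscle and of the myoid cells around testis cords 4 of 14 genes were lower and none higher, 10 were below 0 and the median was -0.39. Acta2, smooth muscle actin, had 2986 in fetal ovary and 6847 in fetal testis (2.29-fold lower), Tagln had 549 in fetal ovary and 1494 in fetal testis (2.72-fold lower) and Actg2 had 113 in fetal ovary and 272 in fetal testis (2.4-fold lower). The fourth was Ptch1. The others were under 2-fold on either side, as Tpm1 had 2523 in fetal ovary and 3816 in fetal testis, Myh11 had 118 in fetal ovary and 189.7 in fetal testis, Myl9 had 3775 in fetal ovary and 3559 in fetal testis and Des had 457 in fetal ovary and 396 in fetal testis. Pdlim3, a protein of actin filaments on no list, was further apart with 269.7 in fetal ovary and 2328 in fetal testis (8.63-fold lower). Vwf, the clotting factor of endothelium, was the lone endothelial gene lower, with 113 in fetal ovary and 547 in fetal testis (4.83-fold lower), while Pecam1 had 346 in fetal ovary and 299 in fetal testis and Cdh5 539 in fetal ovary and 531 in fetal testis. Igfbp7, which binds insulin-like growth factors, had 1874 in fetal ovary and 4688 in fetal testis (2.5-fold lower), while another probe set gave a log2 ratio of 0.00. In the basement membrane list Col4a4 was at the floor in fetal ovary with 299 in fetal testis (a log2 ratio of -1.99, and -0.78 at another probe set), Egflam had 1088 in fetal ovary and 2234 in fetal testis, and the other 27 of 29 genes were under 2-fold, including Col4a1 with 3702 in fetal ovary and 5804 in fetal testis.

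Genes of the male germ line were lower in fetal ovary, some of them at the floor. In the list of male germ cell fate and the piRNA pathway 11 of 19 were lower and 1 higher, with a median of -1.63. Piwil4, which carries piRNAs into the nucleus, was at the floor in fetal ovary with 597 in fetal testis, although a dim second probe set gave a log2 ratio of -0.16. Piwil2, its partner in the cytoplasm, had 195 in fetal ovary and 743 in fetal testis (3.81-fold lower), and Asz1 and Tdrd5, further proteins of the pathway, were 3.11-fold and 3.26-fold lower, with 308 in fetal ovary and 956 in fetal testis for Asz1 and 113 in fetal ovary and 368 in fetal testis for Tdrd5. Morc1, a protein that silences transposons, was at least 12.9-fold lower. Other genes of the list were under 2-fold. Mov10l1, the helicase that starts piRNA production, had 567 in fetal ovary and 541 in fetal testis and Tdrd7 had 708 in fetal ovary and 746 in fetal testis, both nearly equal. Mael had 1510.0 in fetal ovary and 2608 in fetal testis, a log2 ratio of -0.79, which is below the 5th percentile of all genes. Dnd1, an RNA-binding protein that germ cells need to survive, had 159.6 in fetal ovary and 1143 in fetal testis (7.16-fold lower), and Nxf2, an X-linked RNA exporter of germ cells, had 83.6 in fetal ovary and 624 in fetal testis (7.46-fold lower).

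Pluripotency genes, which male germ cells keep longer, were lower in 8 of 26 cases and higher in none, with a median of -0.49. Pou5f1 (OCT4) had 142 in fetal ovary and 775 in fetal testis (5.44-fold lower), and Trim71 and Lin28a, which act on the let-7 pathway, had 76.9 in fetal ovary and 278 in fetal testis for Trim71 and the floor in fetal ovary and 196 in fetal testis for Lin28a. Sall4 and Utf1 were 8.51-fold and 9.84-fold lower by their brightest probe sets, with log2 ratios of -0.32 and -0.44 at dim ones. Sox2 was just under the limit with 124 in fetal ovary and 241 in fetal testis. Among DNA methylation genes Tet1 and Dnmt3a were nearly equal, Tet1 with 255 in fetal ovary and 237 in fetal testis and Dnmt3a with 1373 in fetal ovary and 1389.9 in fetal testis, whereas Dnmt3l, which male germ cells use to set methylation, was at the floor in fetal ovary.

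Basic cell functions showed no differences of this size. None of 24 glycolysis, 31 oxidative phosphorylation, 30 DNA replication, 27 cell division, 36 interstitial matrix or 16 housekeeping genes reached 2-fold in either direction. The cell division list had 25 of 27 genes below 0 and a median of -0.26, with Cdc20 at 2591 in fetal ovary and 3495 in fetal testis and Mki67 at 3491 in fetal ovary and 3852 in fetal testis, inside the range between the 5th and 95th percentile of all genes. The interstitial matrix list had a median of 0.01, with Col1a1 at 4214 in fetal ovary and 4952 in fetal testis. Among families defined by symbol, none of 16 keratins, 37 proteasome subunits, 30 kinesins or 31 ABC transporters reached 2-fold. Of 52 cytosolic ribosomal protein genes the single exception was Rpl39l, a germ cell copy of Rpl39, with 537 in fetal ovary and 2069 in fetal testis (3.85-fold lower). Kruppel-type zinc finger genes numbered 269 above the floor. Of these 3 were higher, Zfp473, Zfp541 and Zfp672, and none lower, beside 1.68% and 2.59% of all genes.

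The neonatal pair shares no array with the fetal pair and was set beside it. The 211 fetal ovary genes included 88 (41.7%) that were again past 2-fold in that direction in neonatal gonads and 6 that were past it in the other, where 7.45% of the 12595 genes were higher. Of the 326 lower, 173 (53.1%) were lower again and 23 were higher, where 5.24% of genes were lower. For genes on neither meiotic nor steroid lists the shares were 42.8% of 180 and 52.7% of 317. The shares on somatic and germ cell lists were unlike, though their difference was not tested. On the lists of somatic gonad cells 8 of 9 higher genes and 32 of 37 lower genes were past 2-fold again in the same direction. On the meiotic lists 10 of 30 higher genes were, and on the other germ cell lists 5 of 22 lower genes were, while 8 of these 22 were higher in neonatal ovary. Msx1 is on both a somatic and a meiotic list and is counted in both shares. Foxl2 had 878 in neonatal ovary and 142 in neonatal testis (6.2-fold higher), and Emx2 had 1413 in neonatal ovary and 148 in neonatal testis (9.56-fold higher). Emx2 is also on the list of mesonephros and ducts, of which 15 of 19 genes were 2-fold or more higher in neonatal ovary and 1 lower (median log2 ratio 2.41). Of 16 surface epithelium genes 12 were higher in neonatal ovary and 2 lower (median 2.14). The part of these tissues in the neonatal ratios was not tested. Dmrt1 was at the floor in neonatal ovary and had 2945 in neonatal testis (at least 39.1-fold lower). Inhbb had 270.5 in neonatal ovary and 4279 in neonatal testis (15.8-fold lower). Nefm reached 5651 in neonatal ovary, against 255 in neonatal testis (22.1-fold higher). Other fetal differences were under 2-fold in neonatal gonads. Acta2 had 8769 in neonatal ovary and 8626 in neonatal testis, Kitl had 2216 in neonatal ovary and 3169 in neonatal testis, and Amhr2 had 3778 in neonatal ovary and 4101 in neonatal testis. Of the genes whose promoters are shown, Gng13 had 776 in neonatal ovary and 101 in neonatal testis, and Ugt8a was at the floor in both. The neonatal pair is not a replicate of the fetal one, since age differs, and 3' over 5' signal of Gapdh was 3.12 in neonatal ovary and 1.43 in neonatal testis.

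**Figure D4:**
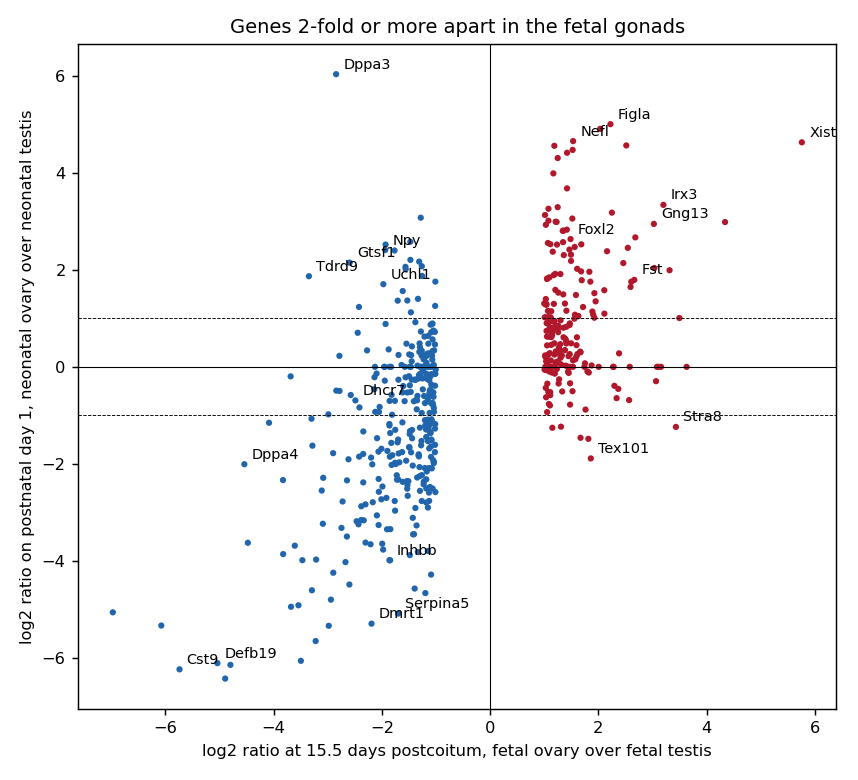
Each point is 1 of the 537 genes 2-fold or more apart in fetal gonads, with its fetal log2 ratio of ovary over testis on the x axis and its neonatal one on the y axis, 1 array per group; red genes are higher and blue genes lower in fetal ovary, and dashed lines mark 2-fold in neonatal gonads. Irx3, Gng13 and Foxl2 lie at the upper right and Defb19, Dmrt1 and Inhbb at the lower left, and Dppa3, Gtsf1, Tdrd9 and Npy at the upper left turned round.

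Genes on the X chromosome were past 2-fold more often in 1 direction. Of 437 X-linked genes above the floor, 23 (5.26%) reached a ratio of 2 in favour of fetal ovary, beside 1.55% of 12131 autosomal genes and a range of 0.571% to 3.01% over single autosomes. Lower genes made up 11 (2.52%), beside 2.56% of autosomal genes. The median log2 ratio of X-linked genes was 0.04, against 0.02 for the autosomes. Xist, the RNA that silences 1 X in female cells, led the group, with 4085 in fetal ovary and the floor in fetal testis, and smaller log2 ratios of 2.92 and 2.75 at its other probe sets. Kdm6a, a histone demethylase that escapes silencing, was the other gene of the escape list past the limit, with 476 in fetal ovary and 229.5 in fetal testis (2.08-fold higher), while Eif2s3x and Kdm5c, which also escape, had 2634 in fetal ovary and 1751 in fetal testis and 570.3 in fetal ovary and 427 in fetal testis. The remainder were not on that list. Dcaf12l1 had 1408 in fetal ovary and 444 in fetal testis (3.17-fold higher), with a log2 ratio of 1.97 at a second probe set. Tktl1, a relative of transketolase, had 934 in fetal ovary and 358 in fetal testis (2.61-fold higher), Rbmx2, a splicing protein, had 655 in fetal ovary and 239.6 in fetal testis (2.73-fold higher) and Ofd1, a protein of centrioles, had 645 in fetal ovary and 285 in fetal testis (2.26-fold higher). Tex11, which acts in meiotic recombination, had 309 in fetal ovary and 81.1 in fetal testis (3.81-fold higher) and was the only one of the 23 on a meiotic list. Rhox13, Rhox9 and Tex16, genes of germ cells, were at the floor in fetal testis with 239.9, 209 and 206 in fetal ovary. Prps2 and Txlng were 2.14-fold and 3.04-fold higher by the brightest probe set, but at -0.26 and 0.18 on the log2 scale by the next. At neonatal age 6 of the 23 were 2-fold higher in ovary again. On the lower side AU015836 had 109 in fetal ovary and 1056 in fetal testis (9.73-fold lower), Pak3, a kinase of the cytoskeleton, had 76.2 in fetal ovary and 485 in fetal testis (6.37-fold lower) and Fhl1, a LIM protein of muscle, had 977 in fetal ovary and 2017 in fetal testis (2.06-fold lower). All 4 Y-linked genes of the list above the floor, Eif2s3y, Uba1y, Kdm5d and Uty, were at the floor in fetal ovary, and Uba1y had log2 ratios of -3.47 and -2.25 by its probe sets.

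**Figure D5:**
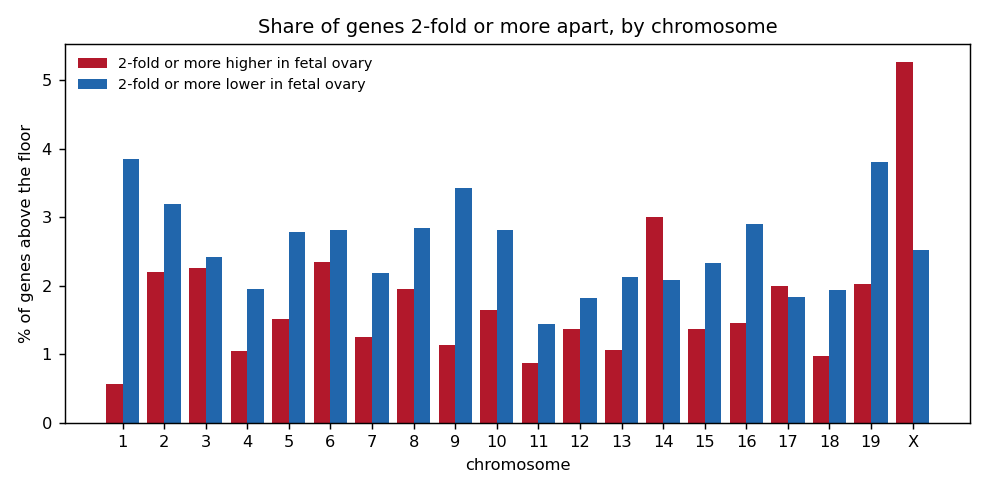
Bars give, for each chromosome, the percent of its genes above the floor that were 2-fold or more higher (red) or lower (blue) in fetal ovary than in fetal testis, from 1 array each. The X chromosome has the highest red bar (5.26%), while its blue bar (2.52%) lies within the range of the autosomes (1.45% to 3.85%).

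A second probe set, where a gene has one above the floor, carries the same gene symbol. Whether it reads the same transcript was not tested. It was past 2-fold in the same direction for 5 of 8 genes 4-fold or more higher, 17 of 59 genes 2- to 4-fold higher, 34 of 68 genes 2- to 4-fold lower and 19 of 22 genes 4-fold or more lower. It was past 2-fold the other way for none of these 157 genes, and at or across equality for 3 of the 59 and 1 of the 68. Its median log2 ratio in the direction of the gene was 0.68 in the 2- to 4-fold higher band and 0.99 in the lower one, and 1.70 and 2.25 in the 4-fold bands.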

How the data were processed

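Total RNA of dissected gonads was labelled with biotin and hybridised to Affymetrix arrays, per the labels' protocols. The deposited table holds 1 intensity value per probe set and array on a linear scale, for 45101 probe sets. The submitters' processing notes name GCOS, version 1, and say no more of it, and the background correction and scaling were not given in the sources used here. An unknown background share in a signal makes ratios of dim genes uncertain. The number of arrays limits the precision.

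Each array was multiplied to the same 2% trimmed mean over all probe sets, and signals were floored at the pooled median of the 6 arrays. Probe sets with 1 gene symbol in the platform annotation (34945, controls left out; 932 had several symbols and 9211 none) gave 18193 genes, each by its brightest probe set over the arrays, of which 18145 had a chromosome in the RefSeq table of GRCm38.p6. Calls are ratios of 2 and of 4, with no test. Lists held 1254 symbols, 1126 matched, in 54 lists, and 46 families were set by symbol. The members, lists, limits and motifs were chosen with earlier results of these data known. Named genes are list members, per direction the 20 of the largest ratio at 4-fold or more and the 20 brightest at 2- to 4-fold off the meiotic and steroid lists, family members at 2-fold, up to 10 genes opposite in neonatal gonads and the 10 brightest X-linked genes per direction, besides Y-linked genes. Genes outside this rule are said to be so. A probe set 2-fold or more from the one used is given beside it where the gene's ratio is printed. The scripts were tested on simulated data.

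Alternatives were quantile normalization, deposited signals, the same median, hybridization controls, floors set to percentile 25 and percentile 75, adding 16 in place of a floor, averaging a gene's probe sets, omission of probe sets open to cross-hybridization, and the second brightest probe set. Python 3.11.15, numpy 2.4.6, pandas 2.3.3 and matplotlib 3.10.9 were used.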

Additional observations from a re-analysis of the deposited data

Results flagged for a closer look

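The 10 genes here were picked out because ovary and testis differed by 2-fold or more in opposite directions in fetal and in neonatal gonads. With 1 array per group these differences were not tested. In all 29 genes did so, 6 higher in fetal ovary and lower in neonatal ovary, and 23 the other way. Of the 29, 11 are on lists of germ cell or meiotic genes. The 23 made up 7.06% of the 326 genes lower in fetal ovary. The matching neonatal share over the 12595 genes was 7.45%. The 6 made up 2.84% of the 211 genes on the other side, beside a neonatal share of 5.24%. Neither kind of turn was thus more frequent than in the 12595 genes. The 10 are the brightest of the 29.

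Germ cell genes lower in fetal ovary and higher in neonatal ovary came first. Dppa3, a maternal factor of the egg that protects DNA methylation, had log2 ratios of ovary over testis of -2.84 in fetal and 6.03 in neonatal gonads, the second a lower bound because neonatal testis was at the floor. Its signals were 253 in fetal ovary and 1819 in fetal testis, against 4911 in neonatal ovary. Gtsf1, a cofactor of piRNA proteins, had -2.59 and 2.15. Tdrd9, a helicase of the piRNA pathway, had -3.35, a bound, and 1.87. Uchl1, a deubiquitinase of germ cells and neurons, had -1.97 and 1.70, and Dppa5a, an RNA-binding protein of pluripotent cells, had -1.33 and 1.40.

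Meiotic and surface genes of germ cells went the other way. Stra8 had 3.43 in fetal gonads and -1.24 in neonatal gonads, where ovary was at the floor and testis had a signal of 177.5. Tex12, of the synaptonemal complex, had 1.82 and -1.48, and Tex101 had 1.86 and -1.89.

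The last 2 are on no list. Npy, a neuropeptide, had -1.94 and 2.41, with signals of 263 in fetal ovary and 1007 in fetal testis and of 438 in neonatal ovary and 82.6 in neonatal testis. Niban1, a stress response gene, had -1.61 and 1.56.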

How the results depend on the processing

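The counts depend most on the floor and on which probe set stands for a gene. Genes 4-fold or more higher, 35, became 65 under a floor at percentile 25, 5 under one at percentile 75 and 7 with the second brightest probe set, and genes 4-fold or more lower, 80, became 144, 22 and 16. Genes 2- to 4-fold higher, 176, became 356, 49 and 43 under these 3 settings and 335 with no floor and 16 added, and genes 2- to 4-fold lower, 246, became 514, 90, 65 and 545. Higher genes that were higher again in neonatal ovary, 88, became 163, 17, 16 and 135, and lower genes that were lower again, 173, became 267, 64 and 42 under the first 3. X-linked genes higher, 23, became 6 under the higher floor and 5 with the second probe set, and X-linked genes lower, 11, became 26, 4 and 1 under the first 3 settings and 27 with no floor. A lower floor lets dimmer genes pass and a higher one removes them, and the second probe set leaves only genes with several probe sets. The other settings kept every one of these counts within 1.5 times. Of 261 named genes at 2-fold or more, 259 stayed there in the same direction with quantile normalization, 246 with deposited signals, 254 with equal medians, 238 with hybridization controls, 132 under the higher floor and 230 with the mean of all probe sets. The share of higher genes among those past 2-fold, 39.3%, ranged from 32.3% with hybridization controls to 48.2% with deposited signals, under which the median of all genes was 0.10. With the second brightest probe set, 46 of 122 named genes stayed, the log2 ratios of Hells (-0.18) and Prps2 (-0.26) turned round, and so did the median of the list of cohesin, axis and synaptonemal complex genes (-0.047). This list median covers only members whose second probe set was above the floor, and not the 15 genes of the main setting. It is therefore not a second reading of the same genes. Of 8 genes 4-fold or more higher with such a probe set, none was at or across equality. The cause of the turns was not tested. No paired analysis was possible because each group has 1 array.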

Other observations

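A small group of genes for peptide signalling was lower in fetal ovary. It was noticed after the values were seen and was on no list, so its members are described only. Nts, neurotensin, had a signal of 75.5 in fetal ovary and 404 in fetal testis (5.35-fold lower). Pdyn, the precursor of dynorphins, and Sct, secretin, were at the floor in fetal ovary with 382 and 498 in fetal testis (at least 5.07-fold and at least 6.61-fold lower). Tacr3 and Sstr4, receptors for neurokinin B and somatostatin, had 90.3 in fetal ovary and 765 in fetal testis for Tacr3 (8.47-fold lower) and 127 in fetal ovary and 559 in fetal testis for Sstr4 (4.4-fold lower). In neonatal gonads Tacr3 had 132 in ovary and 645 in testis, Sct had the floor value in ovary and 515 in testis, and Nts had 177 in ovary with testis at the floor.

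A pair of mast cell genes and a pair of skeletal muscle genes, also singled out after their values were seen and on no list, were higher in fetal ovary. Cpa3, a protease of mast cells, had 579 in fetal ovary and 286 in fetal testis (2.02-fold higher), and in neonatal gonads 1555 in ovary and 178 in testis. Cma1, mast cell chymase, had 306 in fetal ovary and 132 in fetal testis (2.32-fold higher), and in neonatal gonads 1256 in ovary and 158 in testis. Myl1 and Mybpc1, of skeletal muscle, were at least 2.68-fold and 2.35-fold higher, with 202 and 404 in fetal ovary against the floor and 172 in fetal testis. Of 30 genes of the myosin family above the floor, 1 was 2-fold or more higher and 1 lower. In that family 9 genes were above 0 and 21 below, with a median of -0.19. No list of mast cell or skeletal muscle genes was made, so other markers of these cells are not described.

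Antisense transcripts of 3 supporting cell genes were higher in fetal ovary, also seen after the fact. Foxl2os had 478 in fetal ovary and 166 in fetal testis (2.87-fold higher), Emx2os had 241 in fetal ovary and 101 in fetal testis (2.39-fold higher) and Wt1os had 287 in fetal ovary and 134 in fetal testis (2.14-fold higher). Whether these probe sets tell the strands apart was not tested.

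Probe sets that carry no single gene symbol here were left out of the genes above. Of 10092 such probe sets 2915 were above the floor on a fetal array, of which 7 were 4-fold or more higher and 24 were 2- to 4-fold higher in fetal ovary, and 11 and 44 were lower. The largest difference was 44.2-fold, with 142 in fetal ovary and 6285 in fetal testis, and the next 19.8-fold, with 238 in fetal ovary and 4726 in fetal testis.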
